A study of Mus musculus with 4 samples.

Results

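The genes described here encode structural proteins of central myelin, or proteins that myelin membrane needs: Mbp, Cnp, Mog, Mag, Mobp, Mal, Cldn11, Ugt8a and Opalin. They were picked by name, with earlier results of these data known. All 9 were found among the 29224 genes of the count table. RNA came from astrocytes taken from the cerebral cortex of mice at P5 with anti-GLAST magnetic beads, GLAST being a glutamate transporter on the astrocyte surface. The control group (the controls, Ezh2 f/f) carried floxed alleles of Ezh2, the methyltransferase of Polycomb repressive complex 2. The Ezh2 cKO group carried the same floxed alleles together with an Aldh1l1-icre transgene, which expresses Cre recombinase from the promoter of the astrocyte gene Aldh1l1. Each group had 2 libraries, both of P5 cortex, and how many animals went into a library is not given in the sources used here.

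Myelin is the membrane that oligodendrocytes wrap around axons, and in the mouse cortex most of it is laid down after the first postnatal week. Its compact layers are held together on the cytoplasmic side by basic proteins, while other proteins keep channels of cytoplasm open, contact the axon, seal the outer loops or supply the glycolipids of the sheath. Astrocytes are not known for making myelin, and the transcription factors Olig2, Sox10 and Myrf drive these genes as oligodendrocyte precursors mature.

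The libraries held 17522152 and 16273308 counts in the controls and 17330230 and 16678309 in Ezh2 cKO. At that depth 3 counts, the limit that a count of 0 allows, equalled 0.170 to 0.191 CPM (counts relative to TMM-adjusted library sizes), for counting error only. Ezh2 itself had 434 and 327 counts in the controls and 211 and 164 in Ezh2 cKO, with a log2 fold change of -1.11 ± 0.16 (SE, edgeR adjusted p = 3.26e-05). Here and below a positive log2 fold change means a higher value in Ezh2 cKO, and an adjusted p is that of edgeR's quasi-likelihood test after Benjamini-Hochberg adjustment over the 16793 genes tested, with a gene called at 0.05. All 12 astrocyte marker genes of a list had counts in every library, with a summed level of 191 FPKM in both Ezh2 f/f libraries and of 686 and 619 FPKM in Ezh2 cKO. The 12 neuron marker genes stood at 2276 and 2353 FPKM in the controls and at 2307 and 2313 FPKM in Ezh2 cKO, so neuron transcripts were present in all 4 libraries. Of this, the neuron gene Tubb3 alone held 1859 and 1897 FPKM in the controls and 1223 and 1207 FPKM in Ezh2 cKO. Ezh2 f/f replicate 2 stood apart for the transcription factor Tcf7l2, with 1457 counts against 88 in Ezh2 f/f replicate 1 and 60 and 75 in Ezh2 cKO. Capn11, Tfap2b, Irx1 and Esrrb were also at least 4-fold higher in that library than in the other control, so results are given without it too, and its part in them beyond that was not tested. In both groups replicate 2 had more Xist and less of the Y-linked Kdm5d than replicate 1, by at least 4-fold.

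As a description, the sequence upstream of the starts of these genes was read from the RefSeq promoter table for GRCm38.p6, which matched 8 of the 9 genes. Each window covers the 200 bases from 250 to 51 bases before a transcription start. Letters searched on both strands were the SOX core ACAAAG or ACAATG, the E-box CAGCTG or CATCTG, and TATAAA, and matches are in capitals (CTTTGT is ACAAAG on the other strand). The windows of Mobp, Cnp, Mag and Opalin are shown because they hold a match, and that of Mal because it holds none and belongs to the gene whose level did not separate the groups. They lie at chr9:120149492-120149691 (Mobp, plus strand), chr11:100574689-100574888 (Cnp, plus strand), chr7:30914973-30915172 (Mag, minus strand), chr19:41077164-41077363 (Opalin, minus strand) and chr2:127656746-127656945 (Mal, minus strand).
Mobp: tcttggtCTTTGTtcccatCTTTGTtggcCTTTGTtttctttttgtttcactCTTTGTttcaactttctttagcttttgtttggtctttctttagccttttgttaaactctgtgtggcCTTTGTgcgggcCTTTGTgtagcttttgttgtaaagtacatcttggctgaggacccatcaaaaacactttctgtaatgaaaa
Cnp: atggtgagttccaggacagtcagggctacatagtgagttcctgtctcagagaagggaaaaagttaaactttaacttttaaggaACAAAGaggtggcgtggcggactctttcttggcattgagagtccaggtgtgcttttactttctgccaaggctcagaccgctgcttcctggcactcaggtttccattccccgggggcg
Mag: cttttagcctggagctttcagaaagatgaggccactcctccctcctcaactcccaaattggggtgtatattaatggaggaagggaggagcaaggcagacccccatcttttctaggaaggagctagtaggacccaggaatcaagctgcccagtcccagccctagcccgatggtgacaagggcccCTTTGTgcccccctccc
Opalin: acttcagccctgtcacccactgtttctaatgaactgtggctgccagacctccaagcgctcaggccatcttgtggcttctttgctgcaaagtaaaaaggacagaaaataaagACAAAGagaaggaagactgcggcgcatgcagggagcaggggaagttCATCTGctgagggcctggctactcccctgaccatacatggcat
Mal: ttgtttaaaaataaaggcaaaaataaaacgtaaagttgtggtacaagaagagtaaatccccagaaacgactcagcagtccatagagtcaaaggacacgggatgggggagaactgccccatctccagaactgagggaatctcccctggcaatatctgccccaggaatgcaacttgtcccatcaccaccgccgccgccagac

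The SOX core was present in 21.2% of all 32851 promoter windows of the table. Mobp had 6 matches, which begin 243, 231, 221, 198, 132 and 120 bases before its start. Cnp had 1 match at 167 bases and Opalin 1 at 139 bases, and Mag had 1 in 2 of its 3 windows, which overlap and hold the same site. Cldn11, Mog and Ugt8a, which were called higher in Ezh2 cKO, had none, and neither had Mal. Mbp was the gene without a window. The E-box, held by 21.0% of all windows, was found once among these genes, in Opalin at 93 bases, and TATAAA, held by 9.1% of windows, in none of them. In base composition the windows were unlike each other. The observed over expected number of CpG pairs was 0.99 for Ugt8a, 0.694 for Cldn11, 0.503 for Mal, 0.399 for Cnp and 0.222 for Opalin, and at most 0.142 for Mag, Mobp and Mog, against a median of 0.357 over all windows. A run of matching letters describes the window and is not evidence of a bound factor.

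Of the 9 genes, 8 had enough counts to be tested, and 7 of those 8 rose in Ezh2 cKO and 0 fell. Among all tested genes 34.7% were called higher and 33.6% lower, so that a call on its own was common in this comparison. With a change of at least 2-fold also asked for, 6 of the 8 were higher, against 19.0% of all genes. The median log2 fold change was 2.56 over the 8 genes and 0.02 over all genes tested. In CPM both Ezh2 cKO libraries lay above both Ezh2 f/f libraries for 8 of the 9 genes, against 42.8% of all tested genes, and both lay below for 0 of the 9, against 41.5% of all tested genes. Without Ezh2 f/f replicate 2, 8 of the 9 genes were called higher and 0 lower, and log2 fold changes were 3.53 for Mbp, 3.11 for Cnp, 0.94 for Cldn11, 2.02 for Ugt8a, 0.73 for Mog and -0.19 for Mal, which was again not called. In bulk RNA, fewer cells of a type and less RNA per cell cannot be told apart.

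**Figure D1:**
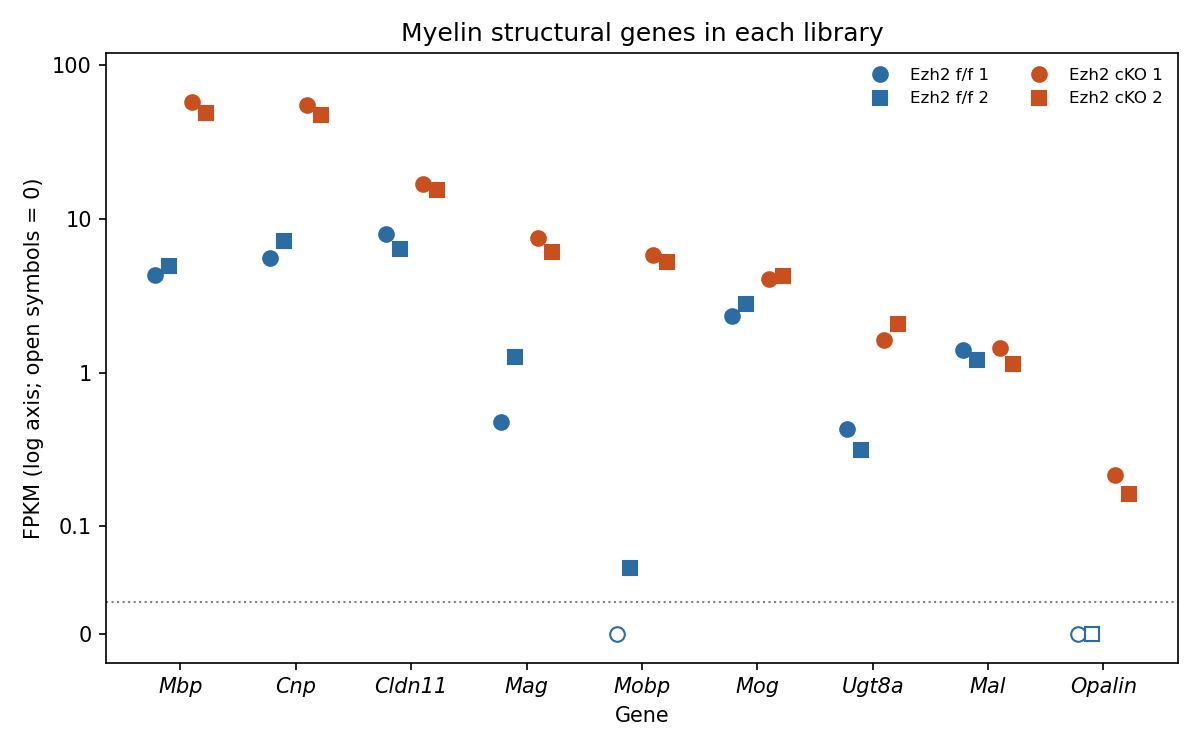
FPKM (reads scaled to gene length and library size, log axis) of each of the 9 genes in each library, with blue for Ezh2 f/f, orange for Ezh2 cKO, circles for replicate 1, squares for replicate 2 and open symbols below the dotted line for 0. The orange points lie above the blue ones for every gene except Mal, where all 4 libraries are between 1.14 and 1.45 FPKM.

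Mbp and Mobp encode the basic proteins of compact myelin. Gene coordinates from here on are those of the deposited tables, whose genome build was not settled. Mbp (ENSMUSG00000041607, chr18:82493271-82603762, plus strand), whose product binds the cytoplasmic faces of the membrane together, had 640 and 682 counts in the controls and 8429 and 6913 in Ezh2 cKO. Its level was 4.31 and 4.95 FPKM in the controls and 57.4 and 48.9 FPKM in Ezh2 cKO. The groups lay far apart, and the replicates of each differed little beside that distance. In CPM Mbp went from 40.4 ± 4.19 (SD, n = 2) to 438.5 ± 55.9 (SD, n = 2), a log2 fold change of 3.44 ± 0.12 (SE, 95% interval 3.19 to 3.69, edgeR adjusted p = 5.02e-11). Among the 29224 genes ranked by mean FPKM it moved from position 7473 to position 1032. Transcripts of the same locus that start further upstream, known as golli, are counted with Mbp in a table by gene. The ribosomal pseudogene Rpl21-ps8, on the opposite strand within Mbp, had 54, 85, 47 and 41 counts in the 4 libraries.

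Mobp (ENSMUSG00000032517, chr9:119978773-120010550, plus strand), a small basic protein of the major dense line of the sheath, was close to absent from the control libraries. It had 0 counts in Ezh2 f/f replicate 1 and 6 in Ezh2 f/f replicate 2, against 689 and 602 in Ezh2 cKO. In FPKM that was 0 and 0.0538 in the controls and 5.81 and 5.27 in Ezh2 cKO. As a fold change, Mobp therefore separated the groups more widely than any other of these genes, with both Ezh2 cKO libraries close to each other. The fitted log2 fold change was 7.60 ± 0.35 (SE, 95% interval 6.84 to 8.35, edgeR adjusted p = 5.87e-10). Its size rests on the few counts of 1 library: it was 6.57 when Ezh2 f/f replicate 1 was left out and 12.3 when Ezh2 f/f replicate 2 was, where the only control left is at 0. On the log2(FPKM + 1) scale the change was 2.67, below those of Mbp (3.26) and Cnp (2.83). The long non-coding RNA gene Gm38642, which overlaps Mobp on the same strand, had 0, 0, 3 and 0 counts in the 4 libraries.

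Cnp and Mag belong to the parts of the sheath that are not compacted. Cnp (ENSMUSG00000006782, chr11:100465730-100482555, plus strand), a phosphodiesterase that keeps cytoplasmic channels open and is already made by immature oligodendrocytes, had 354 and 424 counts in the controls and 3483 and 2857 in Ezh2 cKO. Its FPKM were 5.55 and 7.16 in the controls and 55.2 and 47.1 in Ezh2 cKO, so that it stood level with Mbp in the Ezh2 cKO libraries. The log2 fold change of Cnp was 2.93 ± 0.13 (SE, 95% interval 2.64 to 3.21, edgeR adjusted p = 5.47e-10). Cnp shares bases with Dnajc7 on the opposite strand, whose counts were 2883 and 2765 in the controls against 2327 and 2157 in Ezh2 cKO. Whether the counting used strand is not given in the sources used here.

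Mag (ENSMUSG00000036634, chr7:30598601-30614298, minus strand), the adhesion molecule of the layer that faces the axon, had 34 and 84 counts in the controls and 530 and 416 in Ezh2 cKO. Both Ezh2 cKO libraries were above both controls, but the controls themselves differed, with 0.477 FPKM in replicate 1 and 1.27 FPKM in replicate 2. In Ezh2 cKO its level was 7.51 and 6.13 FPKM. The log2 fold change was 2.90 ± 0.28 (SE, 95% interval 2.29 to 3.50, edgeR adjusted p = 6.04e-07). It was 2.34 when Ezh2 f/f replicate 1 was left out and 3.74 when Ezh2 f/f replicate 2 was, and the call held in both cases.

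Mog, Cldn11 and Opalin encode membrane proteins of the outer surface, the junctions and the loops beside the node. Cldn11 (ENSMUSG00000037625, chr3:31204069-31218473, plus strand), the claudin of the tight junctions between myelin layers, was the most abundant of the 9 genes in Ezh2 f/f by mean FPKM. It had 260 and 194 counts there and 550 and 483 in Ezh2 cKO, or 7.94 and 6.38 FPKM against 17.0 and 15.5 FPKM. Cldn11 rose less than the genes above, with a log2 fold change of 1.10 ± 0.14 (SE, 95% interval 0.79 to 1.40, edgeR adjusted p = 1.03e-05).

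Mog (ENSMUSG00000076439, chr17:37321635-37334290, minus strand), an immunoglobulin-family protein of the outermost layer and a marker of mature sheaths, had 70 and 77 counts in the controls and 120 and 121 in Ezh2 cKO. Its FPKM were 2.34 and 2.78 in the controls and 4.06 and 4.26 in Ezh2 cKO. The groups did not overlap, yet the change was small, with a log2 fold change of 0.62 ± 0.21 (SE, 95% interval 0.17 to 1.07, edgeR adjusted p = 0.0173). The call was lost with DESeq2 (log2 fold change 0.60, adjusted p = 0.0914) and without Ezh2 f/f replicate 1 (edgeR adjusted p = 0.0816), Ezh2 cKO replicate 1 (0.0683) or Ezh2 cKO replicate 2 (0.0798). A short non-coding RNA gene on the opposite strand within Mog had 8, 15, 3 and 6 counts in the 4 libraries. Opalin (ENSMUSG00000050121, chr19:41050149-41065552, minus strand), a membrane glycoprotein of the paranodal loops of central myelin, had 0 and 0 counts in the controls and 11 and 8 in Ezh2 cKO. It was below the filter on low counts and was not tested. Its mean CPM in Ezh2 cKO was 2.96 times the CPM that 3 counts would give in the controls. That figure leaves out the counting error of the 11 and 8 counts. Its level there, 0.215 and 0.163 FPKM, was the lowest of the 9 genes.

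Mal and Ugt8a serve the membrane itself. Ugt8a (ENSMUSG00000032854, chr3:125658920-125732268, minus strand), the enzyme that makes galactosylceramide, the main glycolipid of myelin, had 34 and 23 counts in the controls and 128 and 157 in Ezh2 cKO. Its FPKM were 0.428 and 0.312 in the controls and 1.63 and 2.08 in Ezh2 cKO, with no overlap. The log2 fold change of Ugt8a was 2.23 ± 0.26 (SE, 95% interval 1.68 to 2.78, edgeR adjusted p = 3.18e-06). Mal (ENSMUSG00000027375, chr2:127475146-127498615, minus strand), a proteolipid that carries cargo to the apical and myelin membrane, had 68 and 55 counts in the controls and 70 and 53 in Ezh2 cKO. Its groups overlapped, at 1.40 and 1.22 FPKM against 1.45 and 1.14 FPKM. The log2 fold change of Mal was -0.09 ± 0.25 (SE, edgeR adjusted p = 0.764), with a 95% interval from -0.63 to 0.45. That interval lies below those of Mbp, Cnp, Mag, Mobp, Ugt8a and Cldn11 and overlaps that of Mog.

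**Figure D2:**
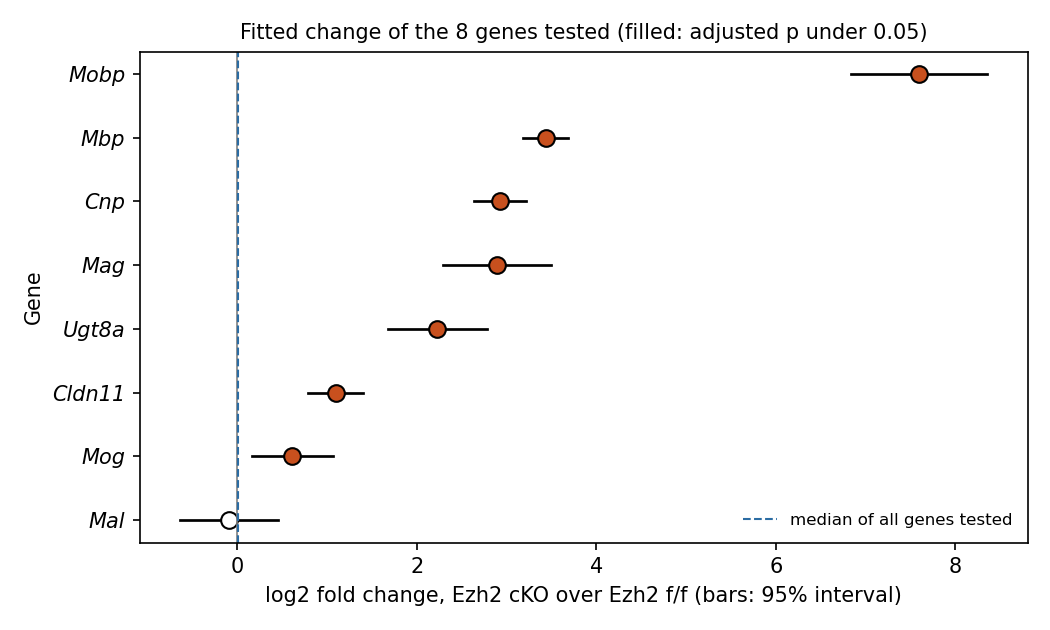
Fitted log2 fold change (Ezh2 cKO over Ezh2 f/f) of the 8 genes tested, with bars for the 95% interval, filled points for an adjusted p under 0.05 and a dashed line at the median of all genes tested, 0.02. Mobp stands at 7.60, Mbp, Cnp, Mag and Ugt8a lie between 2.23 and 3.44, Cldn11 and Mog are at 1.10 and 0.62, and the bar of Mal spans 0.

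The size of the rise thus differed from gene to gene. Of the 28 pairs among the 8 tested genes, 21 had 95% intervals that lay apart. The interval of Mobp was above all others. Those of Mbp, Cnp and Mag overlapped one another, and Ugt8a overlapped Cnp and Mag but lay below Mbp. Cldn11 was below all of these and overlapped Mog. The change of each gene is relative to 1 estimate of library size, so these differences between genes do not turn on that estimate. They do depend on the measure of change. On the log2(FPKM + 1) scale Mobp, at 2.67, was below Mbp at 3.26 and Cnp at 2.83. Ugt8a and Cldn11, whose intervals lay apart in the fit to counts, were at 1.05 and 1.08 on that scale.

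With the genes set side by side per length, the order of levels changed between the groups. In Ezh2 f/f Cldn11 and Cnp were highest, with ranges that overlapped, and were followed by Mbp, Mog, then Mal and Mag, which overlapped, then Ugt8a, Mobp and Opalin. In Ezh2 cKO Mbp and Cnp led with overlapping ranges, ahead of Cldn11, Mag, Mobp, Mog, Ugt8a, Mal and Opalin, each of which was apart from its neighbours. The summed level of the 9 genes was 22.5 and 24.1 FPKM in the controls and 150.3 and 130.5 FPKM in Ezh2 cKO, a ratio of means of 6.03. Cldn11 made up 35.4% and 26.4% of that sum in the controls and 11.3% and 11.9% in Ezh2 cKO. Mbp made up 19.2% and 20.5% in the controls and 38.2% and 37.5% in Ezh2 cKO. The share of Mog went from 10.5% and 11.5% to 2.70% and 3.26%, and that of Mal from 6.22% and 5.05% to 0.967% and 0.876%. Mobp took 0% and 0.223% in the controls and 3.86% and 4.04% in Ezh2 cKO.

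**Figure D3:**
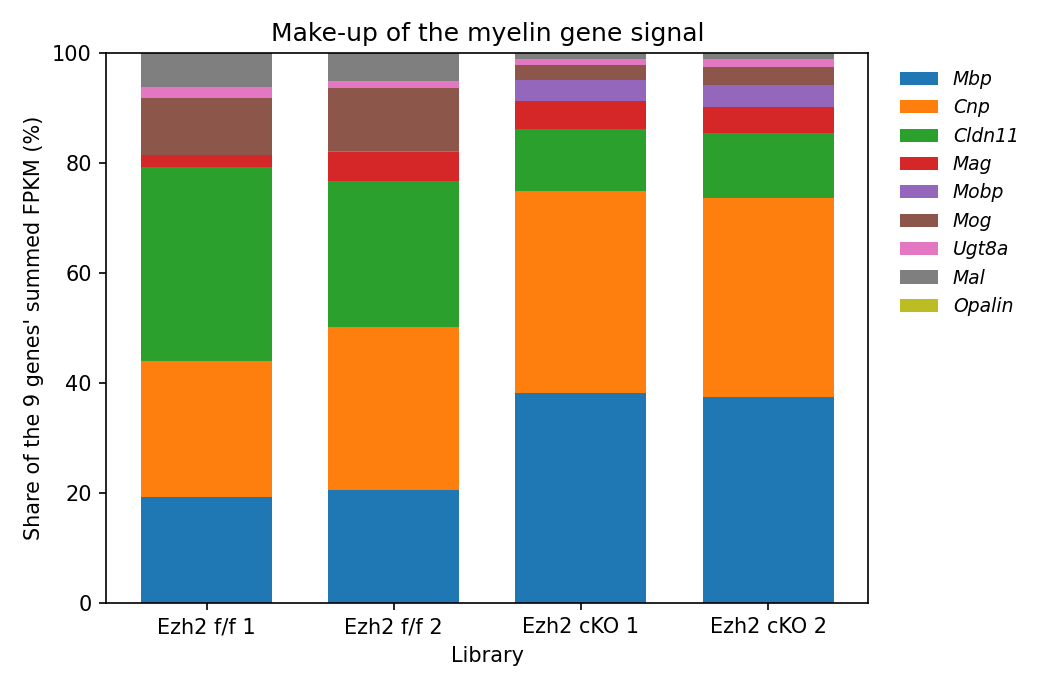
Share (%) of each of the 9 genes in their summed FPKM, 1 stacked bar per library. Cldn11, Mog and Mal fill more of the Ezh2 f/f bars, and Mbp, Cnp and Mobp more of the Ezh2 cKO bars, where Mbp alone is at 38.2% and 37.5%.

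The lineage factors that act upstream of these genes also had more counts in Ezh2 cKO, and the levels were therefore set against them within each library. Sox10, which is expressed throughout the oligodendrocyte lineage and binds many myelin genes, had 367 and 370 counts in the controls and 1031 and 826 in Ezh2 cKO (log2 fold change 1.24 ± 0.12, SE, edgeR adjusted p = 6.43e-07). Per Sox10 FPKM, Mbp stood at 0.628 and 0.664 in the controls and at 2.95 and 3.02 in Ezh2 cKO, a ratio of means of 4.61. Cnp and Mag also remained higher relative to Sox10, by 3.24 and 3.18 times, and Ugt8a by 2.03 times. Cldn11 stood at 1.16 and 0.856 against 0.870 and 0.954, and these ranges overlap. Mog and Mal were lower per Sox10 in both Ezh2 cKO libraries, with ratios of means of 0.659 and 0.395. Mobp per Sox10 was 0 and 0.00722 in the controls and 0.298 and 0.325 in Ezh2 cKO. The log2 fold change of Olig2 was 0.61 ± 0.09 (SE, edgeR adjusted p = 5.12e-05). Against Olig2, with Mobp and Opalin left aside, the ratios of means ran from 0.613 for Mal and 1.01 for Mog to 7.09 for Mbp. Mobp per Olig2 was 0 and 0.00311 in the controls and 0.197 and 0.195 in Ezh2 cKO, a ratio of means of 126. Opalin was at 0 in both controls and has no such ratio. These quotients have 2 values in each group and were not tested.

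**Figure D4:**
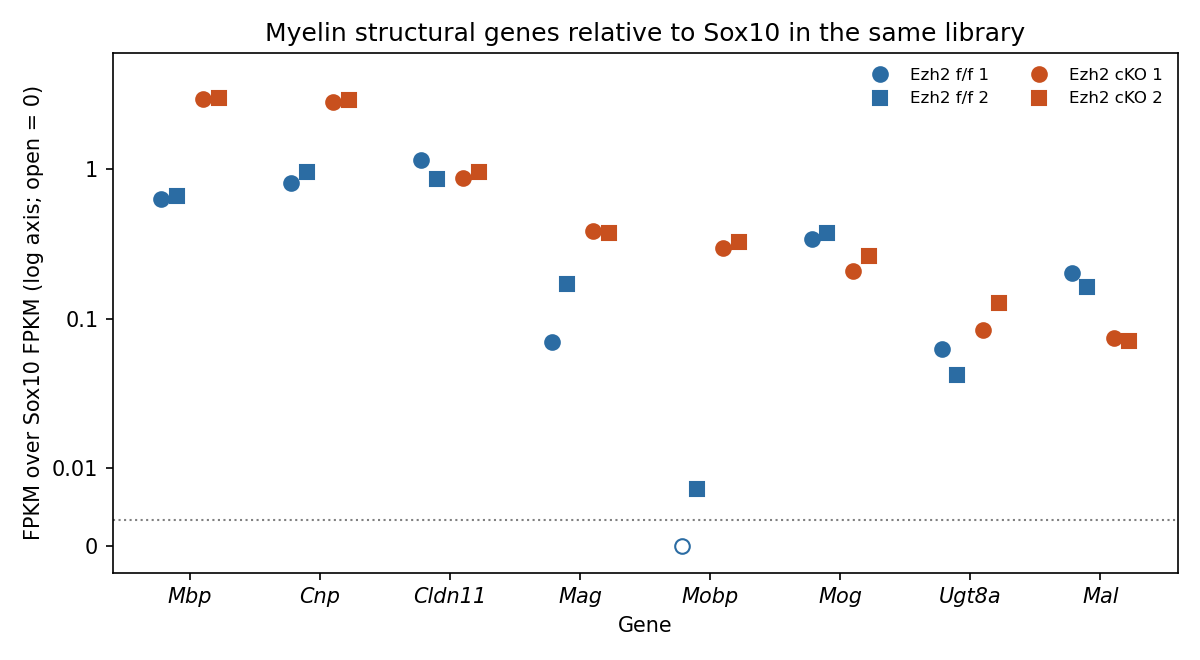
FPKM of each gene (Opalin left out) over the FPKM of Sox10 in the same library, on a log axis, with blue for Ezh2 f/f, orange for Ezh2 cKO, circles for replicate 1, squares for replicate 2 and an open symbol for 0. Mbp, Cnp, Mag, Mobp and Ugt8a are higher in both Ezh2 cKO libraries, Cldn11 overlaps, and Mog and Mal are lower.

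Other genes of the sheath and of the node moved in both directions. Of 24 tested, 16 rose and 5 fell, with a median log2 fold change of 1.23. Here and for the lists below, the shares over all genes tested were 34.7% called higher and 33.6% called lower. Gjc3, a connexin of myelinating glia, and Cntnap1, the neuronal protein of the paranodal junction, had log2 fold changes of 4.16 and 3.90. Gjc3 went from 13 and 4 counts to 158 and 170, and Cntnap1 from 42 and 88 to 1078 and 1005. Cntn2, an adhesion molecule of developing axons and of the region beside the paranode, fell by 2.01 on the log2 scale, from 7020 and 6273 counts to 1803 and 1722. Anln and Mpzl1 fell by 1.34 and 0.56.

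Genes for myelin lipids were called higher in 10 of 12 cases and lower in 1, with a median log2 fold change of 1.48. Fa2h, which hydroxylates the fatty acids of galactosylceramide and so works beside Ugt8a, went from 5 and 5 counts to 109 and 96 (log2 fold change 4.23 ± 0.35, SE, edgeR adjusted p = 1.28e-07). Aspa, which frees acetate for lipid synthesis in oligodendrocytes, had a log2 fold change of 3.94, and Gal3st1, which makes sulfatide from the product of Ugt8a, one of 3.21. The ceramide synthase gene Cers2 fell by 0.51 on the log2 scale.

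Among the activators of myelin transcription 7 of 12 rose and 2 fell. Myrf, the factor that switches on the late myelin genes, went from 60 and 94 counts to 323 and 312 (log2 fold change 1.94 ± 0.21, SE, edgeR adjusted p = 1.80e-06), and Olig1 and Zfp488 had log2 fold changes of 1.97 and 3.35. Tcf7l2 was called lower by 3.65 on the log2 scale, but its Ezh2 f/f replicate 1, at 88 counts, was close to the 60 and 75 counts of Ezh2 cKO, and only Ezh2 f/f replicate 2 stood high. Of 10 inhibitors of maturation 6 were called higher and 2 lower, and with a 2-fold limit 2 higher (against 19.0% of all genes) and 0 lower. Without Ezh2 cKO replicate 1 the calls were 4 higher and 0 lower, and limma called none lower. The largest rise was that of Gpr17, a receptor of cells committed to the lineage but not yet myelinating, from 125 and 192 counts to 3056 and 2711 (log2 fold change 4.08 ± 0.17, SE, edgeR adjusted p = 2.76e-10). Bmp4 and Hes5 had log2 fold changes of 2.06 and 0.72, and Id4 and Id2 fell by 0.65 and 0.43. Id4, like Tcf7l2, was highest in Ezh2 f/f replicate 2, at 813 counts. Its 372 counts in Ezh2 f/f replicate 1 were close to the 369 and 445 counts of Ezh2 cKO, and the groups overlapped in CPM.

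Earlier stages of the lineage were covered by a pair of lists. Of 10 genes of newly formed oligodendrocytes 7 rose and 2 fell, with Enpp6 at a log2 fold change of 4.78, Bcas1 at 4.38 and Itpr2 at 2.27, and with Fyn and Mpzl1 falling by 0.64 and 0.56. Of 12 genes of oligodendrocyte precursors 10 rose and 2 fell. Susd5, Neu4 and C1ql1 had log2 fold changes of 5.95, 5.06 and 2.66. Pdgfra and Cspg4, the surface proteins by which precursors are usually recognised, rose by 0.90 and 0.80. Cacng4, which is also a neuronal gene, fell by 1.16, and Vcan by 0.31. The summed FPKM of the precursor list was 129 and 147 in the controls and 127 and 123 in Ezh2 cKO, although most of its genes rose. Cacng4 alone made up 106 and 125 FPKM of it in the controls and 55.3 and 53.7 FPKM in Ezh2 cKO. Peripheral myelin was covered by 8 Schwann cell genes, of which 6 could be tested, with 0 higher and 3 lower. That stood against 34.7% of all tested genes called higher and 33.6% called lower.

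**Figure D5:**
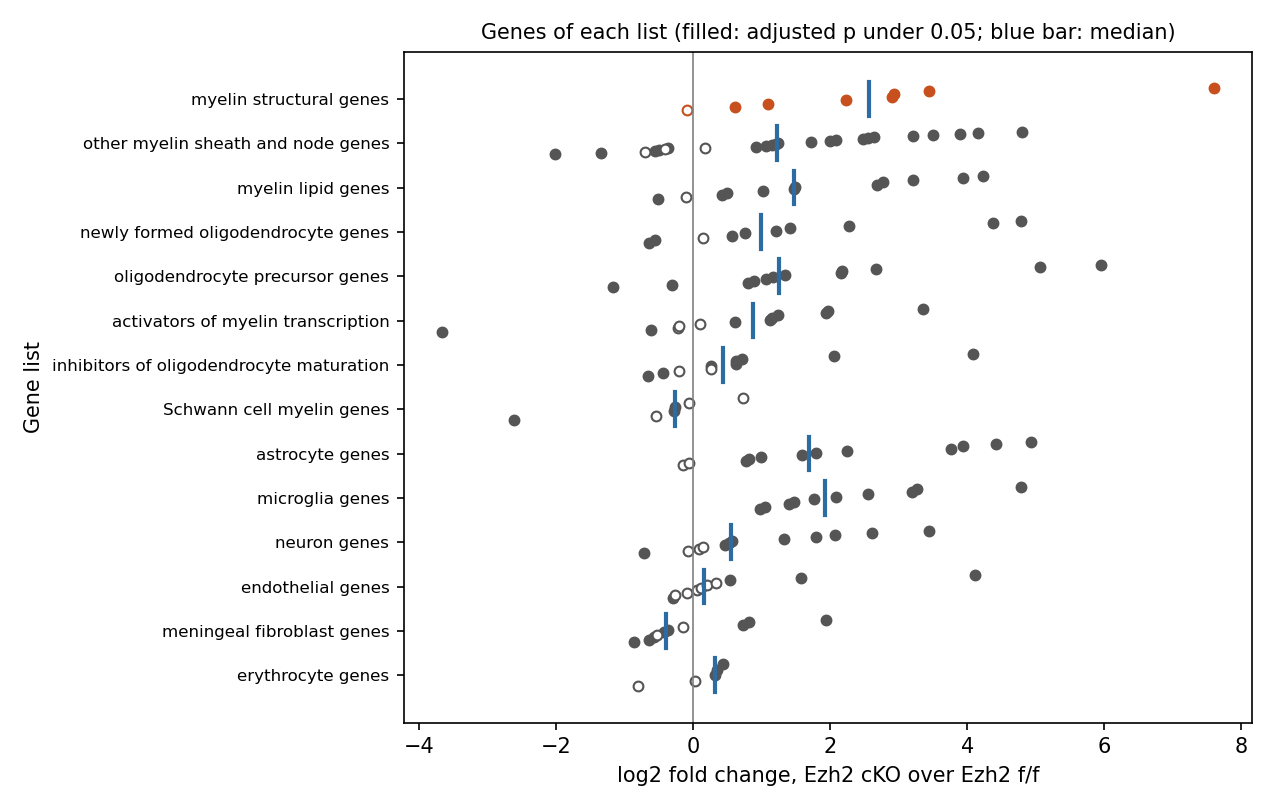
Log2 fold change (Ezh2 cKO over Ezh2 f/f) of each tested gene in 14 lists, with orange for the myelin structural genes, filled points for an adjusted p under 0.05 and a blue bar for the median of each list. The medians are 2.56 for the myelin structural genes, 1.93 for microglia, 1.69 for astrocyte, 0.55 for neuron and -0.27 for Schwann cell genes.

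Of the marker lists of other cells, those of microglia, astrocytes, neurons and erythrocytes had most of their tested genes called higher. Those of endothelial cells and meningeal fibroblasts did not. Over all genes tested, 34.7% were called higher and 33.6% lower. All 10 microglia genes rose, with a summed level of 50.9 and 52.7 FPKM in the controls and 163.5 and 146 FPKM in Ezh2 cKO, and P2ry12, a receptor of resting microglia, had a log2 fold change of 4.79. Of the astrocyte genes 10 of 12 rose and 0 fell, among them S100b at 4.92, Aqp4 at 4.42 and Slc1a3, the gene of the GLAST antigen, at 1.59 ± 0.09 (SE, edgeR adjusted p = 2.71e-09). Aldh1l1 and Sox9, at -0.15 and -0.06, were not called. Of the neuron genes 8 of 12 rose and 1 fell, with Slc17a7 at 3.44 and Tubb3 at -0.71. Their summed FPKM had a ratio of means of 0.998. Tubb3, the gene that fell, held the largest part of that sum, so this ratio does not show the other neuron genes to be level. Slc17a7 went from 24.3 and 20.7 FPKM in the controls to 264 and 252 FPKM in Ezh2 cKO. Endothelial genes were higher in 3 and lower in 1 of 10, meningeal fibroblast genes higher in 3 and lower in 5 of 10, and erythrocyte genes higher in 3 and lower in 0 of 5 tested. No gene of these lists was at 0 in all 4 libraries. The part of other cell types in the rise of the myelin genes was not tested.

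The 5 genes closest to the mean pattern of the 8 tested myelin genes, by root mean square distance over the 4 libraries between centred log2(CPM + 0.5) values, were Tmem255b, Cyp4f14, Car8, Susd3 and Hsdl2, at distances of 0.0343 to 0.0428. Car8 had 80 and 85 counts in the controls and 497 and 467 in Ezh2 cKO, and Tmem255b 9 and 12 against 93 and 80. With 2 groups such a pattern is hardly specific, and 55 genes lay within a distance of 0.1.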

How the data were processed

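RNA-seq libraries from P5 cortical astrocytes (2 Ezh2 f/f, 2 Ezh2 cKO) were grouped by the sample titles. The submitters' processing notes name Bowtie2 2.2.3, TopHat2 2.0.12, HTSeq 0.6.0 and mm9. The authors deposited raw read counts per gene, and FPKM values that equal those counts divided by gene length and by the summed counts of the library. Their own comparison columns (mean signal, fold, log2 fold, p and adjusted p) were not used, and 0 sample columns were left out. Gene coordinates are printed as deposited. Of 28799 genes shared with GENCODE M21, 581 have the same coordinates on GRCm38, so the build of the deposited coordinates was not settled. Promoters are from RefSeq on GRCm38.p6.

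Counts were filtered with filterByExpr (16793 genes kept), TMM-normalized (factors 0.967 to 1.040) and tested with edgeR 4.0.16 by the quasi-likelihood test, with group as the only term, in R 4.3.3. P-values were Benjamini-Hochberg adjusted over all tested genes, and intervals are 95%. CPM use TMM-adjusted library sizes. An exact permutation test on the 4 values of 1 gene cannot pass 0.05 (smallest two-sided p = 0.333), so p-values come from fits across all genes. Replicates differed beyond sampling noise and were kept apart. Chi-square per degree of freedom was 8.92 between the controls and 5.68 between the Ezh2 cKO libraries. The labels do not say that replicates are separate animals. In both groups they differed at least 4-fold in Xist and in Kdm5d. The libraries of a group thus differed in sex make-up and were not repeats of the same RNA. P-values measure the spread between these libraries, and how many animals that spread covers is not given.

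The alternatives were DESeq2 1.42.0 (Wald test, or its size factors in edgeR), upper-quartile scaling, no filter, a minimum mean count of 50, limma 3.58.1 on log2(FPKM + 1) or log2(FPKM + 0.1) with FPKM of at least 1 in 2 libraries or no filter, a replicate block, each library left out, an adjusted p under 0.01, and a change of at least 2-fold. The fits were tested on simulated data, in which limma made more false calls than edgeR or DESeq2. That simulation gave every gene the same dispersion and changed far fewer genes than were called here. It therefore does not rank the fits for these data. Tables were read with Python 3.11.15.

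The members and the gene lists were chosen with earlier results of these data known. Named besides the 9 genes were up to 3 called genes with the largest and up to 3 with the smallest log2 fold change of each list, Ezh2, Slc1a3, the 5 genes nearest in pattern, and regulators that a statement needed, except for a few that are not reported here. Xist, Kdm5d, Pdgfra, Cspg4, Aldh1l1, Sox9, Capn11, Tfap2b, Irx1, Esrrb and the genes that overlap a member were named after their values were seen. Sirt2 and Mpzl1 are each in 2 lists.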

Additional observations from a re-analysis of the deposited data

How the results depend on the processing

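Of the 8 tested genes, Mbp, Cnp, Mag, Mobp, Ugt8a and Cldn11 kept their direction and their call under all 13 refits, and between 6 and 8 of the 9 genes were called higher across the alternatives, with 0 lower in each. Opalin was called in 4 of them: with no filter in edgeR (adjusted p = 0.00362), with no filter in limma, and when either Ezh2 f/f library was left out. Mog was not called with DESeq2 (log2 fold change 0.60), and with a library left out its value ran from 0.49 to 0.73. Mal turned positive with Ezh2 f/f replicate 1 left out (0.0052) or Ezh2 cKO replicate 2 left out (0.088), in a range from -0.29 to 0.088. Over all genes, a 2-fold limit left 3185 higher and 2352 lower, against 5831 and 5650 without that limit. Of the genes of the other lists, 23 were called lower, 13 with limma on log2(FPKM + 1), 13 on log2(FPKM + 0.1), 12 without its filter, 5 with a 2-fold limit, and 15 to 26 with a library left out, 15 being without Ezh2 cKO replicate 2. The causes were not tested, apart from the 2-fold limit, which removes small changes by construction. The median of all genes moved between -0.0009 and 0.09 on the log2 scale. The replicate numbers pair nothing by the labels, and same-numbered deviations correlated at 0.119 over 16793 genes; a fit with the replicate block called 11394 genes, of which 11262 were also called without it, and 7 of the myelin genes higher. Depth limits Mobp and Opalin in Ezh2 f/f, at 0 to 6 counts.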
